A study of Gallus gallus with 20 samples.

Results

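Liver transcriptomes of Guangxi Ma hens with a high or a low laying record were compared across both ages at which the study held the 2 classes, week 50 and week 72. The comparison used 16 of the 20 libraries, 8 of high layers and 8 of low layers, with 4 of each class at each age. It asked which genes differed between the classes in the same direction at both ages. Of 21749 genes listed, 12808 reached at least 1 TPM (transcripts for every 1000000 transcripts, scaled for gene length) in at least 4 of the 20 libraries and were tested, and 8941 were not. Of those tested, 7614 genes, 59.4%, had a high minus low difference of the same sign at week 50 and week 72, 4813 (37.6%) higher and 2801 (21.9%) lower in high layers, and these are the members described here.

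All libraries came from liver of the Guangxi Ma chicken, and age and laying class are what the labels give to tell the groups apart. The other 4 libraries came from hens at week 32. The labels give these a high laying performance, but no low-laying counterpart of that age is among the samples, so age and class cannot be told apart there. They counted toward the filter on low values and entered no test beyond 1 alternative fit over all 20 libraries. The labels give numbered replicates without saying that each came from its own hen, so a p-value here measures the spread between these libraries. Summed over the genes in the table, a library held 764047 to 852815 TPM. TPM keeps no record of sequencing depth, so the depth behind each value is unknown. Spearman correlations between pairs of libraries ran from 0.898 to 0.965, and 3 libraries stood furthest from the rest, namely replicate 1 of the week 50 high layers, replicate 3 of the week 50 low layers and replicate 2 of the week 72 low layers. Transferrin (TF), a plasma protein made by hepatocytes, was abundant in both classes, with a mean of 15630 TPM in high layers against 13680 TPM in low layers. It is 1 of 12 hepatocyte markers tested, which were mixed. Of these, 3 had higher and 3 lower values in high layers at both ages, beside 37.6% and 21.9% of all tested genes.

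The liver of a laying hen makes the yolk. Under oestrogen, hepatocytes secrete vitellogenins, apolipoproteins and vitamin-binding proteins, and export large amounts of triglyceride as very-low-density lipoprotein, which the ovary takes up into growing follicles. Fat that is made but not exported is stored in lipid droplets inside the hepatocyte or burned by beta-oxidation in its mitochondria.

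No gene passed the test for a high minus low difference over both ages. That test was limma on log2(TPM + 1) with laying class and age as terms and Benjamini-Hochberg adjustment over the 12808 genes, and it called 0 genes, 0% of those tested. The smallest adjusted p was 0.107. At an unadjusted p under 0.05 there were 812 genes, 6.34% of those tested, of which 577 (4.5%) had higher and 235 (1.83%) lower values in high layers. Every difference below is therefore a measured value that did not pass the adjusted threshold. A median difference of 0.04 over all genes, with a median standard error (SE) of 0.18, is the background against which single values stand. In whole liver, fewer cells of a type and less RNA per cell cannot be told apart.

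Asking for evidence at each age gave a short list. At week 50 alone, 249 genes (1.94%) had higher and 127 (0.992%) lower values in high layers at an unadjusted p under 0.05, and at week 72 the counts were 437 (3.41%) and 206 (1.61%). Of these, 58 genes, 0.453% of those tested, passed that unadjusted threshold at both ages in the same direction, 42 (0.328%) higher and 16 (0.125%) lower. Taking the larger of the 2 p-values for each gene, the smallest was 0.00132, and 0 genes (0%) passed after Benjamini-Hochberg adjustment in limma. POMT1 (0.0498) and DUSP5 (0.0489) lay just inside the threshold, and LOC112531616 (0.0527) just outside it among genes with lower values. After median-ratio scaling of the libraries, the 58 became 65, with 35 higher and 30 lower, so the split moved from 72.4% to 53.8% higher. For the 812 genes the higher share moved from 71.1% to 48.3%, and for the 7614 from 63.2% to 47.2%. All 58 genes kept their direction at both ages under that scaling. Their choice by small p-values favours this. The scaling factors ran from 0.798 to 1.22 over the 20 libraries, with a mean of 1.044 in high and 1.004 in low libraries. That gap between class means was enough to move the balances above.

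The length of the list of 58 changed with single libraries. Among week 50 libraries, it held 33 genes once high replicate 2 was left out and 25 once low replicate 3 was. Among week 72 libraries, it held 38 genes without high replicate 4, and 38 and 29 without low replicates 1 and 4. Without low replicate 4 of week 50 the balance turned, to 33 higher and 42 lower (44% higher), and that of the 812 genes to 484 higher and 560 lower (46.4% higher). With limma array weights, which down-weight variable libraries, it held 151 genes.

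**Figure D1:**
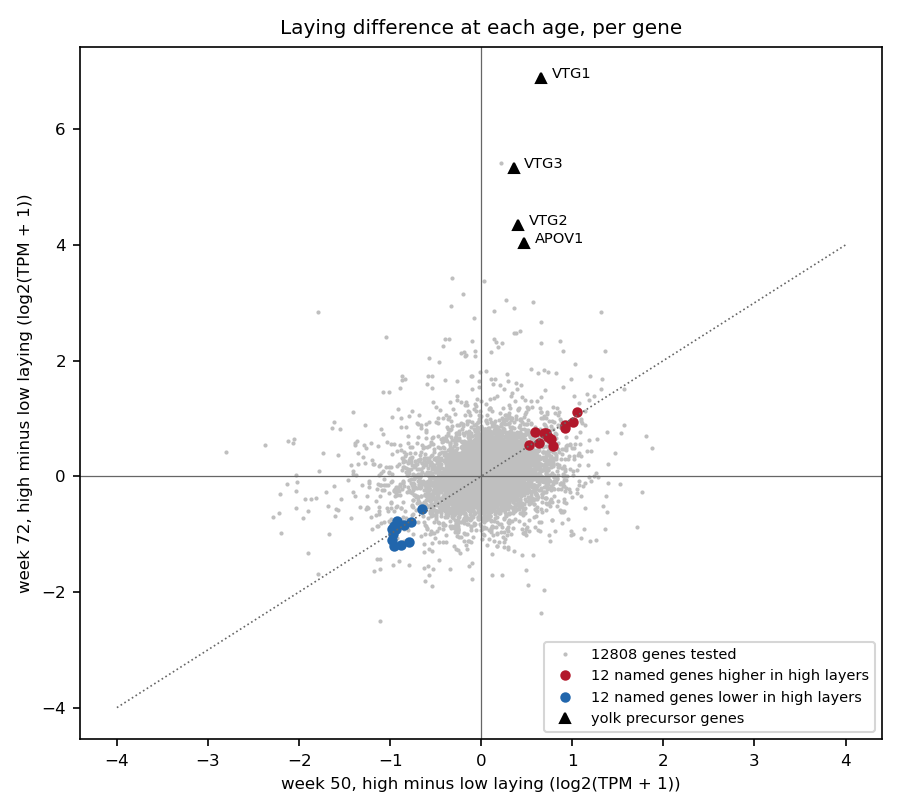
Each point is a tested gene, with its high minus low difference in log2(TPM + 1) at week 50 on the horizontal axis and at week 72 on the vertical axis. Coloured circles are the 12 named genes of each direction, which lie near the dotted line of equal differences, and triangles are VTG1, VTG2, VTG3 and APOV1, which lie far above it at week 72 differences of 4.04 to 6.88; of all 12808 points, 7614 fall in the upper right and lower left quadrants.

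A stricter view needs no model. In 6 genes, 0.0468% of those tested, every high library exceeded every low library at both ages, and in 0 genes (0%) every high library lay below every low library at both ages. The 6 were LYSMD4, RAD51D, SMCO1, SMYD5, CTC-575C13.4 and the long noncoding RNA LOC107049678. At least LOC107049678 and CTC-575C13.4 would not have met the filter on low values without the high libraries, so that filter favours their direction. At single ages, 162 genes (1.26%) at week 50 and 248 (1.94%) at week 72 had high libraries entirely above low ones, against 66 (0.515%) and 126 (0.984%) entirely below. Median-ratio scaling gave 12 genes at both ages, 8 higher and 4 lower. Leaving out 1 library loosens this criterion, and the count was then 33, 10 and 18 without week 50 high replicates 1, 3 and 4, and 14, 17 and 21 without week 50 low replicates 1, 2 and 4. The last of these held 6 higher and 15 lower genes, a reversed balance. It was 12, 10, 13 and 13 without week 72 high replicates 1 to 4 in turn, and 11, 25 and 20 without week 72 low replicates 1, 2 and 3. With the 3 most distant libraries removed it was 81, 70 higher and 11 lower. The reverse pattern, a full separation with opposite signs at the 2 ages, occurred in 1 gene (0.00781%), LOC121108786.

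Among the 42 genes with higher values in high layers, LYSMD4 ranked first of those with a full gene symbol. It encodes a membrane protein with a LysM domain and lies on chromosome 10, 17098856 to 17123494 (GRCg7b). At week 50 it had 21.2, 24.4, 17.8 and 18.4 TPM in high and 10.9, 15.2, 10.4 and 6.37 TPM in low layers. Week 72 gave 23.6, 12.6, 9.66 and 13.1 TPM in high layers against 6.85, 9.23, 7.25 and 5.61 TPM in low layers. No high library fell to the level of a low library of its age, although levels in both classes averaged less at week 72. The log2 difference was 0.90 ± 0.18 (SE, 8 against 8 libraries), a 1.87-fold ratio, with an adjusted p of 0.284 in limma.

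BHMT2, an enzyme gene, lies on chromosome Z, 22975365 to 22991303. In mammals this enzyme passes a methyl group to homocysteine to make methionine. Week 50 levels were 786, 1158, 1038 and 582 TPM in high layers against 351, 573, 377 and 448 TPM in low layers. Week 72 levels were 451, 713, 449 and 948 TPM in high layers against 294, 208, 461 and 360 TPM in low layers. The classes were apart at week 50, and at week 72 only low replicate 3 reached the lowest high libraries. The difference of 0.97 ± 0.21 on the log2 scale, 1.96-fold, had an adjusted p of 0.307. AZIN2, an antizyme inhibitor that in mammals frees ornithine decarboxylase to make polyamines, lies on chromosome 23, 5671591 to 5698507. It had 6.92, 8.98, 7.46 and 6.52 TPM in week 50 high layers against 4.9, 5.07, 3.04 and 3.87 TPM in low layers, and 5.91, 5.96, 7.41 and 5.11 TPM against 2.9, 3.29, 5.28 and 2.02 TPM at week 72. The ranges met only at week 72, where low replicate 3 passed high replicate 4. Its log2 difference was 0.73 ± 0.15 with an adjusted p of 0.307. The list for serine, glycine, asparagine and one-carbon metabolism, which leaves out BHMT2, was mixed. Of its 15 tested genes, 3 had higher and 3 lower values at both ages, beside 37.6% and 21.9% of all tested genes. Its median was 0.06, 0 genes were called, and MTHFD2 had -0.64 ± 0.36 (adjusted p 0.833).

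Iron handling and DNA repair each gave a gene near the top. STEAP3, on chromosome 7, 28019425 to 28039574, encodes a reductase that converts iron in endosomes after transferrin uptake. At week 50 it had 96.7, 70.4, 75.2 and 66.4 TPM in high layers against 45.3, 41.2, 53.8 and 36.8 TPM in low layers. At week 72 the values were 113, 96.1, 78.4 and 62.9 TPM against 51.6, 75.9, 62 and 51.5 TPM. High and low libraries were apart at week 50 and overlapped at week 72 through low replicate 2. Its difference was 0.65 ± 0.14 on the log2 scale, with an adjusted p of 0.328. RAD51D, on chromosome 19, 4960101 to 4964193, encodes a protein of homologous recombination repair. It had 10.7, 11.3, 8.63 and 6.0 TPM in week 50 high layers and 4.26, 5.26, 5.81 and 4.24 TPM in low layers. The week 72 levels were 5.2, 6.76, 7.65 and 7.0 TPM in high layers against 2.33, 4.69, 4.44 and 4.35 TPM in low layers. The classes did not overlap at either age, and the closest pair at each age was less than 1 TPM apart. The log2 difference of RAD51D was 0.71 ± 0.15 with an adjusted p of 0.307. XRCC5, the Ku80 subunit that binds broken DNA ends, was also among the 42, at 0.66 ± 0.20 with an adjusted p of 0.612.

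Transport and membrane proteins were among the rest. SLC2A2, the GLUT2 glucose transporter of hepatocytes, had a difference of 0.78 ± 0.22 (adjusted p 0.575). TLCD4, a membrane protein with a TLC domain, had 1.08 ± 0.28 (adjusted p 0.508), and MAMDC4, a glycoprotein known from apical endosomes of mammalian gut, had 0.88 ± 0.20 (adjusted p 0.387). Smaller differences were those of MYLKSML at 0.68 ± 0.17, RUSC2 at 0.72 ± 0.19, BTG1L at 0.60 ± 0.16 and SMIM11 at 0.53 ± 0.15, with adjusted p between 0.480 and 0.519. MBTPS2, the site-2 protease that releases sterol-regulated transcription factors from their membrane anchor, had 0.41 ± 0.13 (adjusted p 0.620). Over the 42 genes the log2 differences ran from 0.38 for SDR16C5 to 1.54 for LOC101749116.

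**Figure D2:**
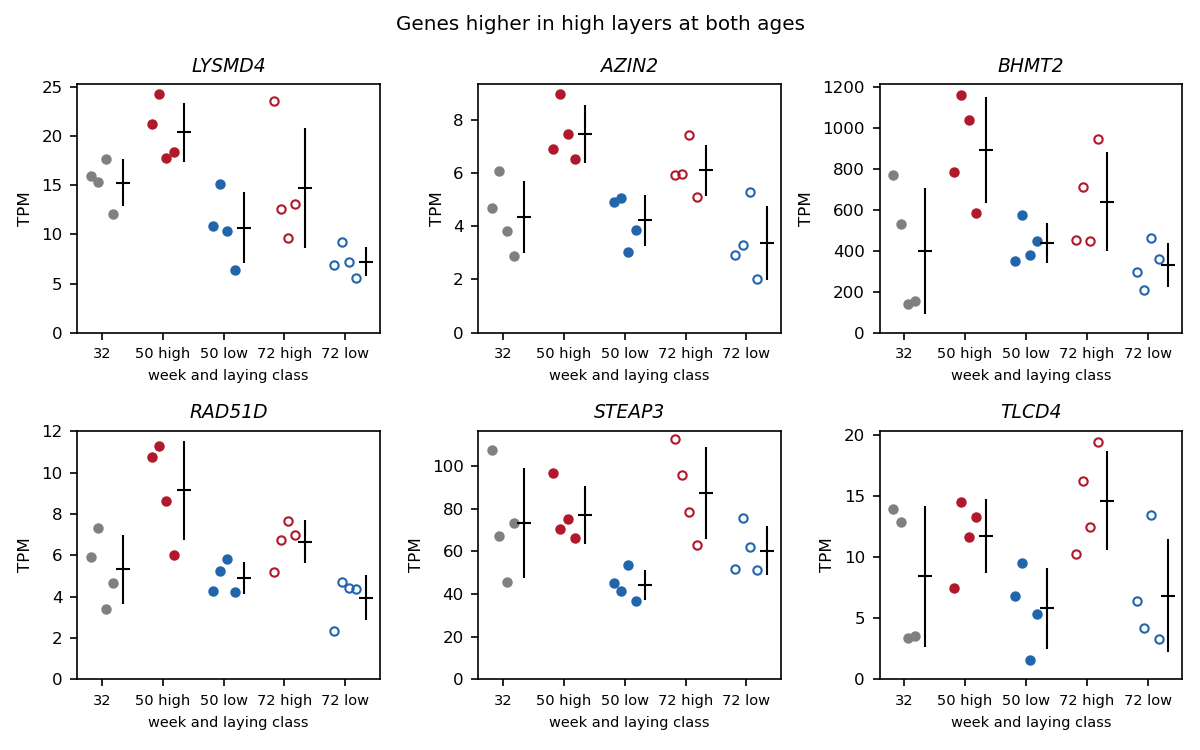
TPM in each library for 6 genes with higher values in high layers, by week and laying class, on linear axes that start at 0. Points are libraries and the bars give the mean and SD of each group of 4. LYSMD4 and RAD51D have no overlap between classes at either age, and the week 32 libraries of BHMT2 and TLCD4 fall into a high and a low pair.

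The 16 genes with lower values in high layers included PLIN2 and ISYNA1. PLIN2 encodes the coat protein of lipid droplets and lies on chromosome Z, 34056394 to 34070493. At week 50 it had 131, 180, 188 and 152 TPM in high layers against 257, 614, 389 and 161 TPM in low layers. Week 72 gave 94.2, 150, 155 and 116 TPM in high layers against 418, 97.5, 291 and 347 TPM in low layers. High layers stayed within a narrow band, and at each age a single low library, week 50 replicate 4 and week 72 replicate 2, lay inside that band. The difference was -0.98 ± 0.29 on the log2 scale, 0.51-fold, with an adjusted p of 0.594. ISYNA1, which makes inositol phosphate from glucose 6-phosphate in the first step of inositol synthesis, lies on chromosome 28, 4379796 to 4383812. Its levels were 5.63, 5.82, 4.81 and 7.9 TPM in week 50 high layers and 10.2, 11.6, 16 and 7.7 TPM in low layers. At week 72 they were 7.8, 8.09, 7.44 and 3.97 TPM in high layers against 26.2, 11.2, 10.6 and 19.7 TPM in low layers. The classes overlapped at week 50 by one pair of libraries and were apart at week 72. The log2 difference was -0.97 ± 0.21 with an adjusted p of 0.307. ISYNA1 stood alone in its list. Of 17 tested genes of inositol and phospholipid synthesis, 6 had higher values at both ages and only ISYNA1 lower. Of all tested genes, 37.6% had higher and 21.9% lower values at both ages. The list median was 0.07, and 0 genes were called.

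RBPMS, an RNA-binding protein of splicing control, lies on chromosome 4, 34317022 to 34322388. It had 7.57, 5.18, 8.91 and 10.05 TPM in week 50 high layers and 12.5, 19.8, 32.2 and 8.30 TPM in low layers. At week 72 its levels were 8.36, 7.15, 8.15 and 7.49 TPM in high layers against 14.3, 24.8, 11.4 and 24.4 TPM in low layers. Only week 50 low replicate 4 lay among the high libraries. The difference of -1.04 ± 0.23 on the log2 scale had an adjusted p of 0.328. SLC47A1, an organic cation exporter, had -1.08 ± 0.27, and MAFF, a small Maf transcription factor induced by stress in mammals, had -1.04 ± 0.26, both with an adjusted p of 0.480.

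Genes tied to cell death stood in both lists. The caspase gene CASP18, at 0.63 ± 0.17 (adjusted p 0.519), and BCL2L15 of the BCL2 family, at 0.43 ± 0.12 (adjusted p 0.594), were among the 42 higher genes. The lower list held TNFRSF10B and AEN, and the signalling gene DUSP5. TNFRSF10B, a death receptor, had 18.7, 16.9, 15.6 and 8.06 TPM in week 50 high layers against 22.6, 34.2, 32.1 and 28.1 TPM in low layers. The week 72 values were 7.02, 8.46, 15.5 and 6.86 TPM against 26, 6.69, 22.9 and 23.5 TPM, so that low replicate 2 alone lay below all high libraries. Its difference was -0.94 ± 0.25 with an adjusted p of 0.508. AEN, a nuclease linked to apoptosis in mammals, had -0.84 ± 0.25 (adjusted p 0.612). DUSP5, a phosphatase that switches off ERK, had the second largest size of the 16 at -1.41 ± 0.39 (adjusted p 0.512). The protease inhibitor CSTA had -0.85 ± 0.21, TATDN3 had -0.78 ± 0.22, FAM46A had -0.93 ± 0.29 and XKRX had -0.91 ± 0.28, with adjusted p between 0.480 and 0.620. IDH3A, a subunit of the mitochondrial isocitrate dehydrogenase, had -0.61 ± 0.17 (adjusted p 0.524).

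**Figure D3:**
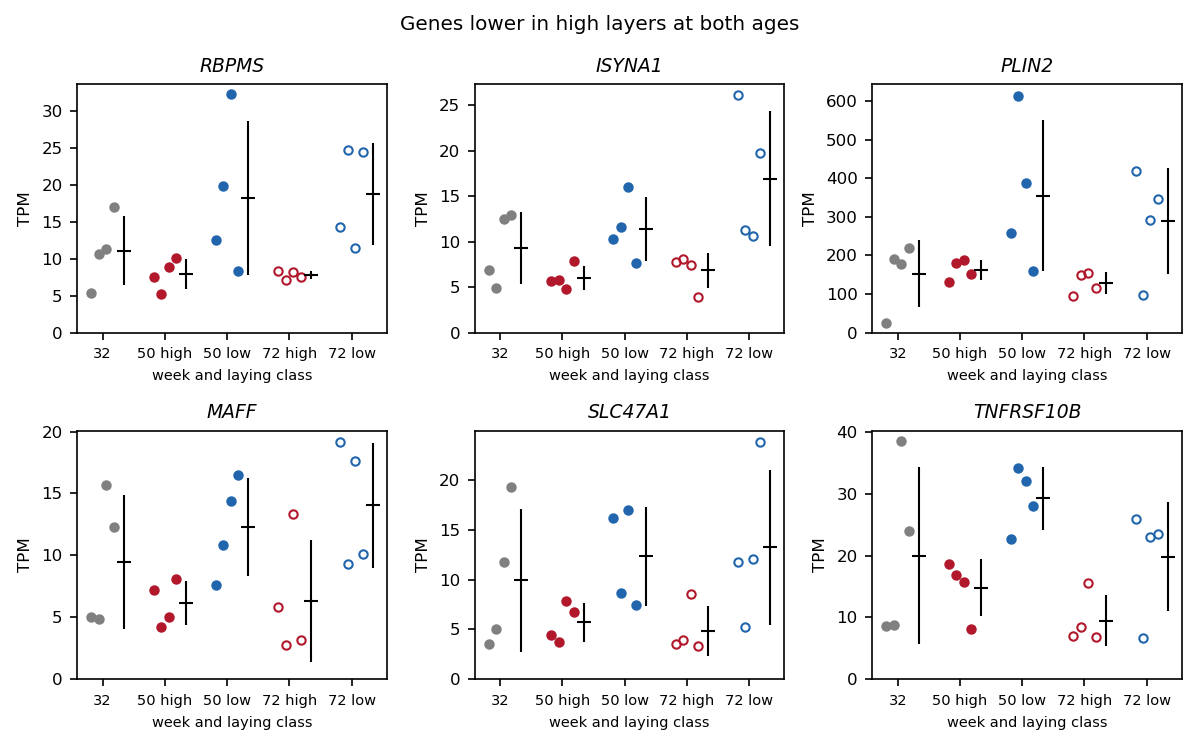
TPM in each library for 6 genes with lower values in high layers, by week and laying class, on linear axes that start at 0. Points are libraries and bars give the mean and SD of each group of 4. High libraries of PLIN2 lie between 94.2 and 188 TPM, while low libraries spread from 97.5 to 614 TPM.

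The 3 loci with the smallest p-values carry placeholder names. LOC107049678 was added by name to the set chosen for naming, which was drawn up with earlier results of these data known. LOC423222 and LOC112533478 were singled out after their values were seen. None of the 3 was thus chosen independently of these data. LOC423222, a protein-coding locus on chromosome 5, 24663864 to 24690333, had 17, 15.5, 14.8 and 20.9 TPM in week 50 high layers and 4.71, 7.97, 6.17 and 8.01 TPM in low layers. At week 72 it had 8.57, 22, 21.8 and 15 TPM in high layers against 3.82, 9.34, 7.69 and 2.97 TPM in low layers. Classes were apart at week 50, and at week 72 only high replicate 1 lay within the low range. Its difference of 1.31 ± 0.22 had an adjusted p of 0.107. In limma it passed in 3 of 25 alternatives. These were array weights (adjusted p 0.0355), the replicate block (adjusted p 0.0259) and the fit without week 72 high replicate 1 (adjusted p 0.0414). Leaving out that replicate, the 1 high library within the low range, favours a call. The adjusted p reached 0.285 in the alternatives.

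LOC107049678, a long noncoding RNA on chromosome 15, 20789 to 22557, was at 0.717, 1.02, 0.648 and 2.67 TPM in week 50 high layers and 0.453, 0.358, 0 and 0.085 TPM in low layers. At week 72 it was at 4.91, 3.33, 5.35 and 2.98 TPM in high layers against 0.279, 0, 0.719 and 1.06 TPM in low layers. Levels in high layers were several times those of low layers at each age, at values near the filter. Without the high libraries this RNA would not have met that filter. The week 32 libraries, labelled as high laying, had 0.58, 0, 0.17 and 0.09 TPM. Their mean log2(TPM + 1) of 0.25 lay below the 0.41 of low layers, where high layers had 1.72. The difference was 1.31 ± 0.23 (adjusted p 0.107). A limma fit over all 20 libraries with a mean per group, week 32 included, gave an adjusted p of 0.0225. That was the only 1 of 24 alternatives in which it passed, and its adjusted p in limma reached 0.303. LOC112533014 lies 2147 bases away from it, is also a long noncoding RNA, and had a difference of 1.49 ± 0.29 (adjusted p 0.220). Its mean log2(TPM + 1) was 2.02 in high layers, 0.53 in low layers and 0.44 at week 32. The low and week 32 means lay below the filter of 1 TPM, so that filter may favour its direction too. A further pair, SMCO1 and LOC107051864 on chromosome 9, overlaps in the annotation, so reads may be shared and their values are uncertain. SMCO1, annotated as a long noncoding RNA, had 0.70 ± 0.16 (adjusted p 0.328), and LOC107051864 had 1.14 ± 0.31 (adjusted p 0.508).

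The small nucleolar RNA LOC112533478, on chromosome 14, 6148736 to 6148864, had 1.68, 0, 0.978 and 0.974 TPM in week 50 high layers against 6.7, 3.78, 10.1 and 2.68 TPM in low layers. At week 72 it had 1.92, 6.22, 1.98 and 0.954 TPM against 14.7, 4.65, 13.3 and 9.31 TPM. High replicate 2 at week 72 was the only high library inside a low range. The difference of -1.74 ± 0.31 had an adjusted p of 0.107, and 0.0448 with array weights. That was the only 1 of 25 alternatives in which it passed, and its adjusted p in limma reached 0.391. Of the 58 genes, 48 were protein-coding and 9 were long noncoding RNAs, SMCO1 and LOC107051864 counted separately, 15.5% of the list against 4.30% of the tested genes that matched the annotation.

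The estimated class differences of these genes were similar in size at the 2 ages, which the choice favours, since a gene ranked by its weaker age must differ at both. The median absolute change in the difference from week 50 to week 72 was 0.07 in the 42 genes with higher values. It was 0.12 in the 16 with lower values. The 95% intervals stay wide. For LYSMD4 the change was -0.04, with an interval from -0.83 to 0.76, for STEAP3 -0.27, from -0.89 to 0.35, and for PLIN2 -0.03, from -1.28 to 1.21. LOC107049678 was the 1 gene of the 58 with an unadjusted p under 0.05 for this change, at 0.97 and an interval from 0.11 to 1.82 (adjusted p 1.0 in limma).

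Most yolk precursor genes had the same sign at both ages, and the vitellogenins had unequal sizes. VTG2, the main vitellogenin, had 11996, 13687, 6344 and 14774 TPM in week 50 high layers and 9062, 13283, 4528 and 9164 TPM in low layers. At week 72 it had 12212, 15950, 12625 and 16071 TPM in high layers against 725, 95.1, 13572 and 241 TPM in low layers. Low layers at week 72 split into 3 libraries far below the high layers and replicate 3 among them, and the week 50 classes overlapped. The difference was 0.41 at week 50 and 4.35 at week 72, and the change between them, 3.94 with an interval from 0.98 to 6.91, had an unadjusted p of 0.012 and an adjusted p of 1.0. VTG1 had 0.66 and 6.88, and APOV1, which limits the breakdown of yolk lipoprotein, 0.47 and 4.04. Over both ages VTG1, VTG2, VTG3 and APOV1 had adjusted p between 0.648 and 0.669. Of 15 yolk precursor genes, 10 had higher and 3 lower values at both ages (37.6% and 21.9% of all tested genes), and 0 were called. The biotinidase gene BTD was more even, at 0.47 and 0.39 (0.43 ± 0.17 over both, adjusted p 0.704). APOA1, the main protein of high-density lipoprotein, had negative values, at -0.56 and -0.95 (-0.75 ± 0.28, adjusted p 0.669).

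Genes that burn fatty acids mostly had the same sign at both ages. Of 20 tested in the list for fatty acid oxidation and ketogenesis, 14 had higher and 1 lower values in high layers at both ages, where 37.6% and 21.9% of all tested genes did, with a median difference of 0.18 beside 0.04 over all genes. No member was called, and 3 had an unadjusted p under 0.05, beside 6.34% of all genes. CPT1A, which controls fatty acid entry into mitochondria, had 0.90 ± 0.29, with 0.92 at week 50 and 0.87 at week 72 (adjusted p 0.622). CPT2, the partner of CPT1A on the inner membrane, had 0.50 ± 0.21 (adjusted p 0.719). FABP1, the abundant fatty acid-binding protein of hepatocytes, belongs to a separate list, that of fatty acid binding and uptake. FABP1 averaged 2013 TPM in high layers against 1062 TPM in low, a difference of 0.95 ± 0.26 (adjusted p 0.508). That difference was 0.61 at week 50 and 1.30 at week 72, and the classes overlapped at each age. Of the 9 tested genes in that list, 4 had higher and 2 lower values at both ages, and 0 were called. FABP4, of the same list, had the opposite sign, at -0.52 ± 0.19 (adjusted p 0.660).

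Genes of fat synthesis and of lipoprotein turnover were mixed. Of all tested genes, 37.6% had higher and 21.9% lower values at both ages. Of 26 tested genes of fatty acid and triglyceride synthesis, 5 had higher and 4 lower values at both ages. Besides PLIN2, the lower ones included SREBF1, a transcription factor of fatty acid synthesis, at -0.48 ± 0.21 (adjusted p 0.772), while the desaturase FADS1 had 0.71 ± 0.25 (adjusted p 0.648). The FADS1 difference was 0.24 at week 50, where the classes overlapped, and 1.18 at week 72, where they did not. In the list of plasma lipoprotein remodelling, 1 of 11 genes had higher and 5 lower values at both ages. CETP, which swaps lipids between lipoproteins, averaged 1.98 TPM in high layers against 15.3 TPM in low, a difference of -1.80 ± 0.53 (adjusted p 0.598). Week 72 low replicate 2 alone had 71.9 TPM of CETP, and without it the difference was -1.40. LPL, the lipase that clears triglyceride, averaged 0.655 and 5.90 TPM, at -1.14 ± 0.51 (adjusted p 0.772), and its mean in low layers came mainly from week 72 replicates 1 and 2, at 19.7 and 20.9 TPM. Cholesterol synthesis had opposite medians at the 2 ages. Its 17 tested genes had a median of 0.58 over both ages, made of -0.22 at week 50 and 1.67 at week 72, and only 2 had higher values at both ages.

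In other lists, no gene was called. Of all tested genes, 37.6% had higher and 21.9% lower values at both ages. Of 36 cell cycle genes, 24 had higher and 2 lower values at both ages, with a median of 0.25, and TK1, an enzyme of thymidine salvage, had 0.62 ± 0.32. None had an unadjusted p under 0.05, and the numbers with higher values at both ages ran from 5 to 30 when 1 library was left out. Of 19 cytosolic heat shock genes, 0 had higher and 12 lower values at both ages, with a median of -0.19. HSPB1 was at -0.72 ± 0.37 and HSP90AB1 at -0.47 ± 0.26, none had an unadjusted p under 0.05, and without week 50 low replicate 4 the median was 0.01. Ribosomal proteins (median 0.02 over 58 genes) and the respiratory chain (-0.01 over 36) lay beside the 0.04 of all genes. The ribosomal median was made of -0.08 at week 50 and 0.12 at week 72. Only 17 of the 58 ribosomal genes (29.3%) had the same sign at both ages, and 19 of the 36 respiratory chain genes (52.8%), against 59.4% of all tested genes. CYP7A1, the rate-limiting enzyme of bile acid synthesis, averaged 118 TPM in high layers against 34.7 TPM in low, with 2.08 ± 0.99 (adjusted p 0.787). The 27 tested genes of cytochrome P450 and conjugation were mixed, 8 with higher and 5 with lower values at both ages, and had a median of 0.03.

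**Figure D4:**
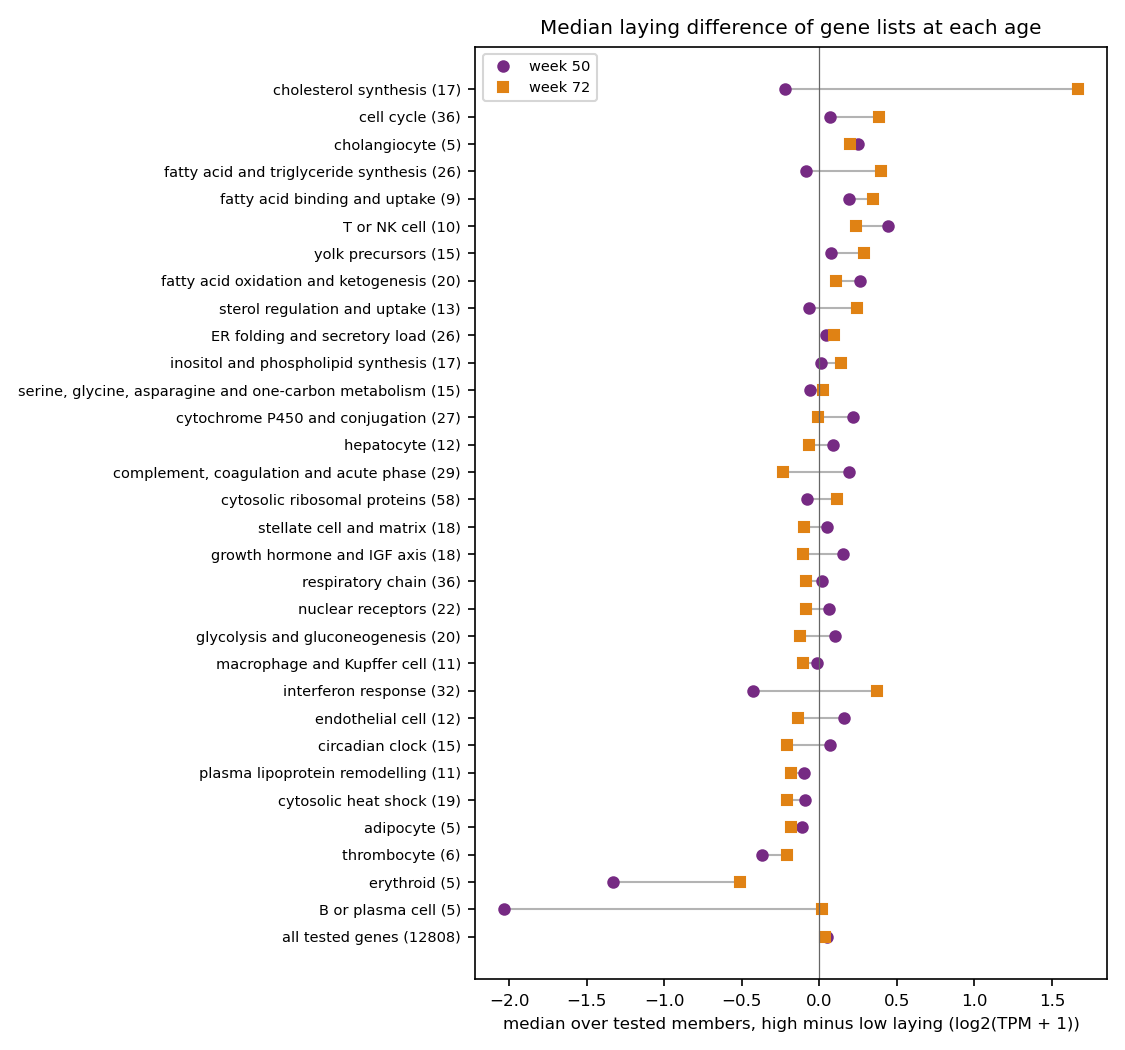
Median high minus low difference in log2(TPM + 1) over the tested members of each gene list (number in brackets), with a circle for week 50 and a square for week 72 joined by a line. Fatty acid oxidation lies at 0.27 at week 50 and 0.11 at week 72, the erythroid list at -1.33 and -0.51, and cholesterol synthesis at -0.22 and 1.67.

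Several lists of blood cell markers had medians away from that of all genes, with 0 genes called. Of all tested genes, 37.6% had higher and 21.9% lower values at both ages. In limma over both ages, 1.83% of all genes had lower values at an unadjusted p under 0.05. All 5 tested erythroid genes had lower values in high layers at both ages, 4 of them at an unadjusted p under 0.05, with a median difference of -0.93. Their summed level was 194 to 293 TPM in week 50 high layers and 157 to 3804 TPM in low layers, and 670 to 951 against 795 to 1513 TPM at week 72, so the ranges overlapped at both ages. HBA1, an alpha globin, had -0.93 ± 0.41 (adjusted p 0.772), with 1653 TPM in week 50 low replicate 3, and without that library the list median was -0.53. Of 6 thrombocyte genes, 5 had lower values at both ages, and ITGB3, an integrin of thrombocytes, had -0.61 ± 0.18 (adjusted p 0.612). Of 10 T or NK cell genes, 7 had higher and 0 lower values at both ages, with CD8A at 0.69 ± 0.37, and the median of 0.22 was 0.02 without week 50 low replicate 4. Of 5 B or plasma cell genes, 0 had higher and 2 lower values at both ages, with a median of -1.01, made of -2.03 at week 50 and 0.02 at week 72. Their summed level was 64.9 to 457 TPM in week 50 high layers against 175 to 11084 TPM in low layers, and 81.9 to 545 against 57.8 to 384 TPM at week 72. Without week 50 low replicate 3 that median was -0.46. Summed thrombocyte markers were at 9.11 to 14.5 against 13.2 to 17.5 TPM at week 50 and 9.96 to 17.3 against 13.8 to 18.9 TPM at week 72, and T or NK cell markers at 156 to 261 against 66.6 to 327 TPM and 79.3 to 174 against 68.0 to 151 TPM. The part of blood cells in the differences above was not tested.

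The week 32 libraries, labelled as high laying, counted toward the filter on low values but not toward the differences that chose the 58 genes. Their mean lay between the class means for 32 of the 42 genes with higher values and 13 of the 16 with lower values. It was nearer the high layers for 18 of the 42 (42.9%, against 37.8% of all genes with higher values at both ages) and for 7 of the 16 (43.8%, against 61.5%). Over the 12 top genes with higher values, the mean deviation was 0.24 and 0.21 in week 32 replicates 1 and 2, and -0.59 and -0.62 in replicates 3 and 4. Over the 12 with lower values it was -0.82, -0.41, 0.42 and 0.59 in the same order. Replicates 1 and 2 thus had values on the side of the high layers and replicates 3 and 4 on that of the low layers. In BHMT2 the 4 libraries had 769, 531, 141 and 153 TPM. This split was seen in the values, and no label accompanies it.

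**Figure D5:**
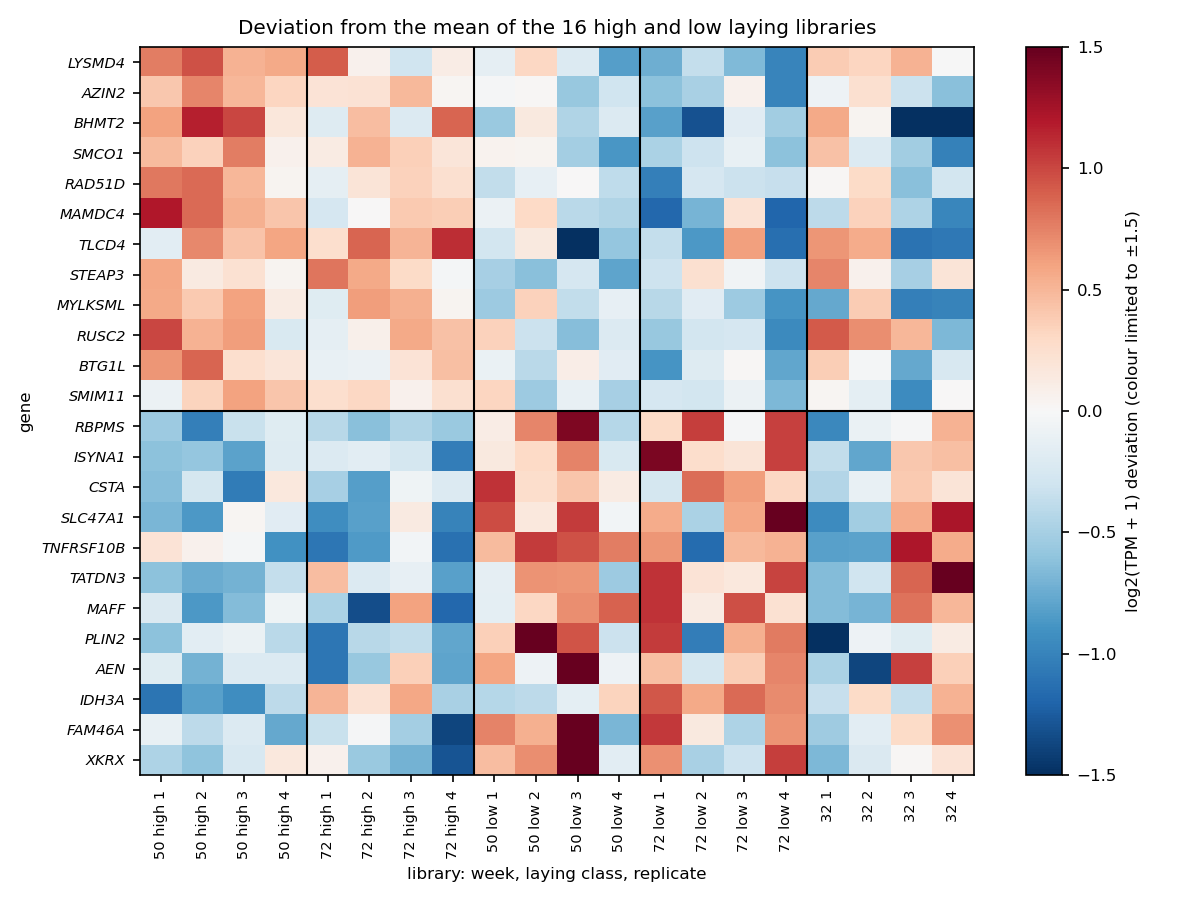
Deviation of log2(TPM + 1) from the mean of the 16 high and low libraries for the 12 top genes in each direction (1 line of cells per gene, red above and blue below the mean, colour limited at 1.5), in all 20 libraries by week and laying class. Single libraries depart from their class, and week 32 replicates 3 and 4 are blue in most of the upper genes, with mean deviations of -0.59 and -0.62.

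Within groups, the 12 top genes of a direction varied together only in part. Once group means were removed, the 66 pairs of genes with higher values had a median correlation of 0.24 over the 16 libraries, from -0.45 to 0.73, and the 66 pairs with lower values 0.31, from -0.47 to 0.90. Between the directions the median was -0.12. These pairs share the same libraries, and the values are given as a description.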

How the data were processed

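Liver RNA sequencing of 20 libraries was used as TPM values that the authors deposited in one table. Per the submitters' processing notes the genome build was GRCg7b. No aligner, counter or annotation is given in the sources used here. TPM sums to 1000000 over all features of a library, and the genes listed in the deposited table held 76.4% to 85.3% of that, so a change in other features moves every value. Positions and gene types came from a RefSeq table of GRCg7b, which matched 20888 of the 21749 symbols.

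Values were analysed as log2(TPM + 1) with limma 3.58.1 in R 4.3.3, with a mean-variance trend. Genes needed at least 1 TPM in at least 4 of 20 libraries. The main model had age and laying class as terms over 16 libraries (13 residual degrees of freedom), and differences within an age and their change came from group means (12 residual degrees of freedom). A call was an adjusted p under 0.05. A fold is on the log2(TPM + 1) scale and understates changes of low genes. The code was tested on simulated data.

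The genes named were any called gene, then the 12 per direction with a full symbol and the smallest larger p of the 2 ages, then up to 2 genes per list with the same sign at both ages, plus the vitellogenins, APOV1 and LOC107049678. Genes named beyond this, such as LOC423222, LOC112533478, CTC-575C13.4, SMYD5 and members of the 58 or of a list given as examples, were picked once their values were known. The members, the lists and the design were chosen with earlier results of these data known, so no test here is independent of them. Alternatives were another pseudocount, other filters, median-ratio scaling, a replicate block, other models, array weights and leaving out libraries. Some items are not reported here.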

Additional observations from a re-analysis of the deposited data

Results flagged for a closer look

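Each named gene was checked for a library standing far from the other 3 of its group. Such a library was found in 30 of 372 groups over 93 genes, 8.06%, where chance alone gives about 1 in 20. The values below are TPM, and no explanation was tested.

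In the week 50 high layers, replicate 1 was high in SCAP (113, others 54.2 to 60.0) and TCN2 (1300, others 385 to 453) and low in LYVE1 (4.63). Replicate 2 was low in AEN (3.56). Replicate 3 was high in GSTT1 (315) and low in IGLL1 (41.8, others 330 to 404) and MVK (27.2). Replicate 4 was high in STAR (1.21) and low in TAGLN (5.38) and TAP1 (28).

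In the week 50 low layers, replicate 2 was low in TTR (2780). Replicate 3 was high in CDIPT (36.1) and LPL (3.71, others 0.198 to 0.307). Replicate 4 was low in CTC-575C13.4 (0.367) and SMYD5 (5.58), which are genes whose libraries did not overlap at either age.

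In the week 72 high layers, replicate 1 was high in FABP4 (0.523). Replicate 2 was high in GHR (654) and low in GP1BB (0.672) and STAR (0.835). Replicate 3 was high in PPARD (6.64) and SLC47A1 (8.58). Replicate 4 was high in APOV1 (73300, others 42300 to 43900) and NDUFA2 (100), and low in ISYNA1 (3.97).

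In the week 72 low layers, replicate 1 was low in IGLL1 (32.6), RAD51D (2.33) and TAP1 (13.2). Replicate 2 was low in HMGCS1 (185, others 1070 to 1270) and TNFRSF10B (6.69, others 22.9 to 26). Replicate 3 was high in VTG3 (2230, others 8.54 to 23.1).

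LOC121108786 was the 1 gene whose classes were fully separated at both ages with opposite signs. Its high minus low difference was 0.84 at week 50 and -0.43 at week 72, a change of -1.27 on the log2 scale, with an unadjusted p of 0.000211 and an adjusted p of 1 in limma.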

How the results depend on the processing

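The number of genes called over both ages was 0 in the model used and 1 with the replicate block (LOC423222, adjusted p 0.0259), 1 in the fit of all 20 libraries (LOC107049678) and 2 with array weights. It ran from 0 to 1 when 1 library was left out. Same-numbered libraries had correlations of deviations of -0.21, 0.16, -0.14 and -0.04 at week 50 and 0.23, 0.08, 0.24 and -0.15 at week 72. Libraries with unlike numbers had a median of 0.03 at week 50 and -0.02 at week 72. With so few libraries, these values do not settle whether the numbers pair samples. The count of genes at an unadjusted p under 0.05 at both ages was 58, 77 with the replicate block, 151 with array weights and 25 to 87 with 1 library left out; under these and the other alternatives, 20 to 55 of the genes were among the 58 reported. Genes without overlap at both ages numbered 6, 3 with a filter of 5 TPM, 12 after median-ratio scaling, 81 without the 3 most distant libraries and 6 to 33 with 1 library left out. Genes with 1 direction at both ages numbered 7614 (59.4% of those tested). With 1 library left out, the count ran from 6630 (51.8%) without week 50 low replicate 3 to 7980 (62.3%) without week 50 low replicate 2. With no filter on low values the share was 52.6%. Unadjusted p under 0.05 over both ages held for 812 genes, and for 1638 with array weights. The 24 top genes kept their sign in all 598 values under alternatives, which their choice by small p-values favours, and were never called. Among all named genes, 2 uncalled ones changed sign, HMGCS1 in 1 alternative (lowest -0.02) and TAP2 in 2 (lowest -0.07), and the median of all genes was -0.0074 after median-ratio scaling and -0.0035 without week 50 low replicate 4. In every alternative run, 0 genes were called at both ages jointly. Of 798 list medians, 795 moved by less than the SD of the list's mean level between libraries of a group. That SD is wide beside what leaving out 1 of 16 libraries can move, so the count does not show stable medians. The heat shock, T or NK cell and erythroid medians shifted as given above. The depth of the libraries is not recorded, and 4 libraries a group limit every within-age value.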

Other observations

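Some genes of other roles had the same sign at both ages without passing the adjusted threshold in limma. TCN2, the plasma carrier of vitamin B12, had a high minus low difference of 1.48 ± 0.40 on the log2 scale (adjusted p 0.508), and GSTA3, a glutathione transferase, had -0.83 ± 0.29 (adjusted p 0.648). PLIN1, a lipid droplet protein best known from adipocytes, had 1.27 ± 0.46 (adjusted p 0.662), opposite in sign to the droplet protein PLIN2. COL6A2, a chain of collagen VI in the matrix, had -0.85 ± 0.40 (adjusted p 0.787). TCN2, GSTA3, PLIN1 and COL6A2 were picked after their values were seen. The lists that hold the last 3 were mixed. Of 5 tested adipocyte markers, 2 had higher and 3 lower values at both ages. Of 18 stellate cell and matrix genes the counts were 4 and 5, and of 27 cytochrome P450 and conjugation genes 8 and 5. Of all tested genes, 37.6% had higher and 21.9% lower values at both ages.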
